A study of Rattus norvegicus with 26 samples.

Results

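Fos, Fosb, Junb, Egr1, Arc, Npas4 and Nr4a1 are immediate early genes, that is, genes whose transcription starts within minutes of a stimulus without new protein synthesis. They were chosen by gene symbol, 7 of the 32883 genes in the count table, and all 7 were found there. In 6 of them the counts were high enough for testing, and Npas4 was removed by the filter on low counts. RNA sequencing had measured their transcripts in 26 libraries of rat spinal cord in 8 groups, with total counts from 19496602 to 43468509 per library.

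All rats were wild type Sprague-Dawley rats, and adult females according to the methods. The label of postnatal day 70 is the same for groups taken weeks apart, so it cannot be the age at sampling of all. Tissue was taken as segments of 5 mm. The Intact group (4 libraries) held cords of intact or sham rats. The sub-SCI group (3 libraries) held injured cords taken when transplantation was due, 7 days after an aneurysm clip of 60 g had compressed the cord at T10 for 1 min. The other rats had the same injury and received at that time, into the intrathecal space, either hUC-MSCs, which are mesenchymal stem cells from human umbilical cord (+MSC), or vehicle (+PBS). The cords were taken 1 week (3 +PBS and 3 +MSC libraries), 2 weeks (2 and 3 libraries) or 4 weeks (4 and 4 libraries) after transplantation. For 2 weeks the methods give another number of +MSC libraries, and the labels were followed. By the methods, rats were given cyclosporin A, an immune suppressant, throughout. Whether this included the Intact rats is not stated, and the part of the drug in comparisons with Intact was not tested. The labels do not say whether a library held tissue of 1 rat, so p-values measure the spread between libraries only.

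Immediate early genes link brief signals at the cell surface to longer programmes of transcription. In neurons, calcium entry and kinase cascades act on transcription factors bound near these genes, chiefly CREB at cyclic AMP response elements (CREs) and SRF at CArG boxes, and several of their transcripts are therefore used as marks of recent firing. Growth factors, cytokines and stress start many of the same genes in glia, macrophages and fibroblasts. Arc and Npas4 are the members most restricted to neurons, while Fos, Junb, Egr1 and Nr4a1 can be induced in nearly any cell.

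Promoter sequences were searched for such motifs because the members are known by their shared, rapid induction. RefSeq promoters, 250 bases before to 50 after each gene start in the GRCr8 build, were matched for 5 of the 7 members. Fos and Arc had no match, so their promoters were not searched. The sequences of Nr4a1 and Junb are shown, from the 250 bases before the start on the plus strand, since Nr4a1 held the most CRE half-sites and Junb had the largest increase after injury. Capitals mark CRE half-sites (TGACG, on either strand) and the motif TATAAA.
Nr4a1 (chr7:134259888-134260137): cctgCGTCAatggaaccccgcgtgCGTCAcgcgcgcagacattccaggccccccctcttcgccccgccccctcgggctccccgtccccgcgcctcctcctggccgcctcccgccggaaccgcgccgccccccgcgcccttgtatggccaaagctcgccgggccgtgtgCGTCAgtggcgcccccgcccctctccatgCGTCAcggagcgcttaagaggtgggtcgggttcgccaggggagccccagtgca
Junb (chr19:40080876-40081125): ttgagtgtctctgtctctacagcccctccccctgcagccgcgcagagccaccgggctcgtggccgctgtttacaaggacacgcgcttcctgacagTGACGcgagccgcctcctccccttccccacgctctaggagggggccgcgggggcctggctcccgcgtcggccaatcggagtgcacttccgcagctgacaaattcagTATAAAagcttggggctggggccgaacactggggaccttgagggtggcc

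The Nr4a1 promoter held 4 CRE half-sites, starting at positions -246, -226, -82 and -53 from the gene start. Junb held 1, at -155, with TATAAA at -49. Egr1 held 2 half-sites and 2 CArG boxes. CRE half-sites occurred in 22% of the 27457 promoters searched and in 3 of the 5 members, CArG boxes in 1.64% and in 1 member, and TATAAA in 14.3% and in 2 members. All motifs were searched on either strand, and the TATAAA match of Fosb, at -180, was in reverse (TTTATA). The EGR site (GCGNGGGCG) occurred in 5.29% and in 1 member, Nr4a1, at -73, where it is not marked above. The full CRE (TGACGTCA) and the AP-1 site (TGANTCA), found in 1.91% and 7.33% of promoters, were in none of the 5. These matches describe letters in a window of fixed length and do not show binding.

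The levels of the members in uninjured cord were modest. On a scale of counts per library size and transcript length (RPKM), Junb was the highest in Intact at 10.3 ± 1.92 (SD, n = 4), followed by Nr4a1 at 5.89 ± 1.54, Fos at 5.64 ± 1.23 and Egr1 at 4.93 ± 1.07. Arc lay at 2.70 ± 0.291, Fosb at 0.333 ± 0.0993 and Npas4 at 0.0947 ± 0.0481. All further levels are counts scaled to library size (CPM), which compare 1 gene between libraries.

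**Figure D1:**
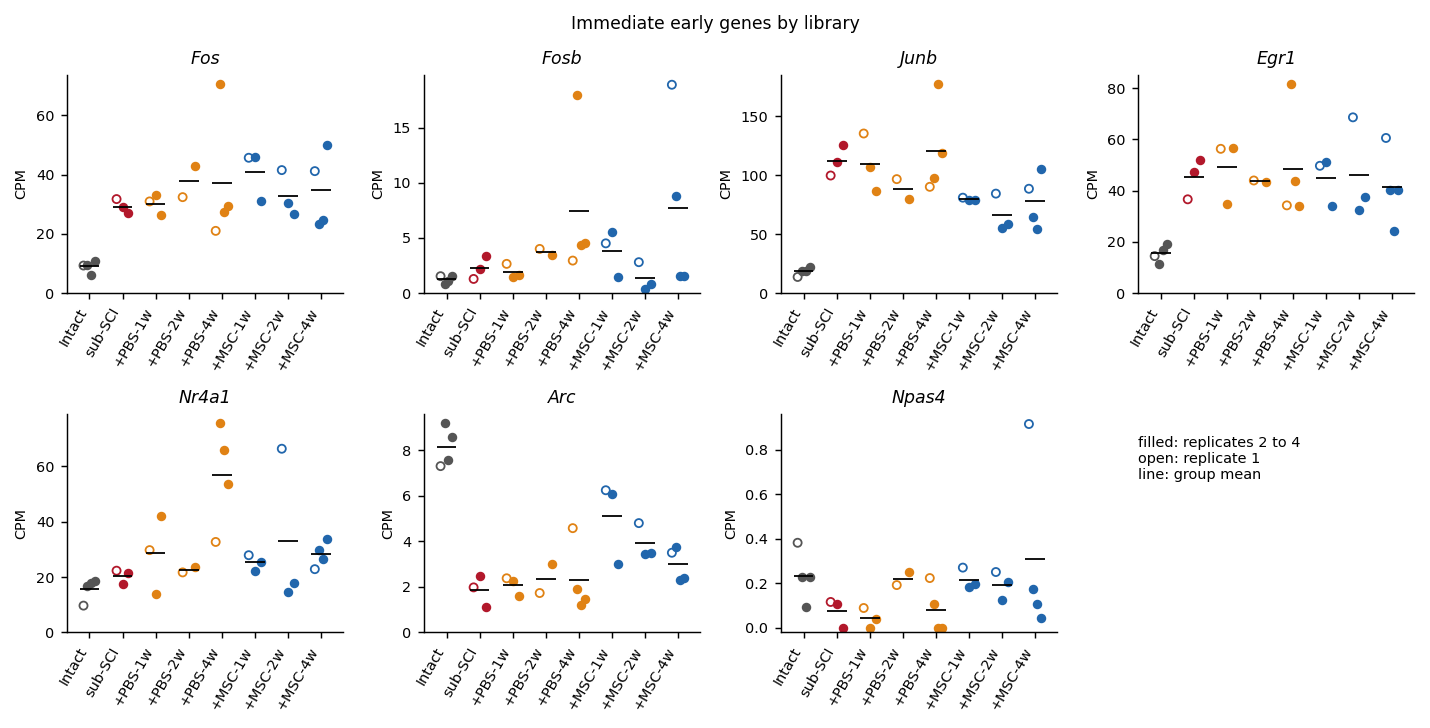
Level of each of the 7 genes in every library, in CPM on a linear axis that differs between panels, by group. Points are libraries (open for replicate 1), lines are group means. All injured libraries lie above all Intact libraries for Fos, Junb and Egr1 and below them for Arc.

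The first question was how the members differed between injured and uninjured cord. Fos, Junb and Egr1 were higher and Arc was lower in sub-SCI than in Intact. The same was found in +PBS at each of the 3 weeks, and at 4 weeks Fosb and Nr4a1 were higher too. Genes were called differentially expressed (DEG) when edgeR's quasi-likelihood test gave a Benjamini-Hochberg adjusted p under 0.01 and the log2 fold change exceeded 1 in size. Of the 6 tested members, 3 were higher DEGs and 1 was a lower DEG in sub-SCI, where 16.6% of all tested genes were higher and 17.5% were lower. In +PBS the counts were 3 higher and 1 lower at 1 week (13.5% and 12.5% of all genes), 3 and 1 at 2 weeks (8.84% and 5.66%), and 5 and 1 at 4 weeks (13.3% and 10.7%). These 4 comparisons share the Intact libraries.

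**Figure D2:**
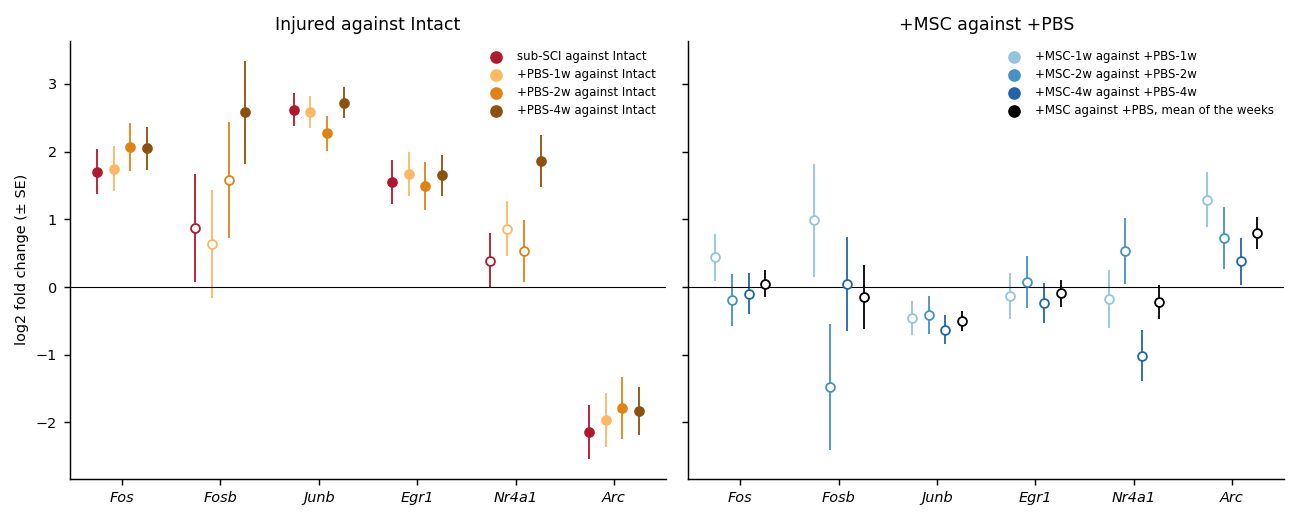
Log2 fold changes with their standard errors for the 6 tested genes, injured groups against Intact (left) and +MSC against +PBS (right). Filled points are DEGs. Fos, Junb and Egr1 lie above 0 and Arc below 0 in every injured group on the left, and every point on the right is open.

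Junb had the largest of the called increases in sub-SCI. Its product is an AP-1 subunit that pairs with FOS proteins and is widely induced by cytokines. The Intact libraries had 13.6, 19.1, 18.6 and 21.9 CPM and the sub-SCI libraries 99.8, 111.7 and 126.1 CPM. The groups were far apart, by 2.62 ± 0.24 (SE) on the log2 scale (adjusted p = 9.11e-09, edgeR). In +PBS the log2 fold changes against Intact were 2.58, 2.27 and 2.72 at 1, 2 and 4 weeks, all DEGs.

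Fos, the founding AP-1 gene and a common mark of recently active cells, had 9.28, 9.39, 6.25 and 10.9 CPM in Intact and 31.7, 29.0 and 26.9 CPM in sub-SCI. No library overlapped, and the log2 fold change was 1.70 ± 0.33 (adjusted p = 0.000128, edgeR). In +PBS-1w it was 1.75 and in +PBS-2w 2.07. In +PBS-4w the libraries had 21.0, 70.5, 27.3 and 29.3 CPM, so that 1 of the 4 was far above the others. The log2 fold change there was 2.05, and 1.53 without that library, replicate 2 (adjusted p = 4.22e-05, edgeR).

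Fosb encodes another FOS protein, whose truncated form can persist in neurons after repeated stimulation; the counts per gene do not separate its forms. It was low throughout, with 0.779 to 1.56 CPM in Intact and 1.28, 2.21 and 3.36 CPM in sub-SCI, and these ranges overlapped (log2 fold change 0.87 ± 0.80, adjusted p = 0.357, edgeR). In +PBS-1w and +PBS-2w the log2 fold changes against Intact were 0.63 and 1.58 (adjusted p = 0.527 and 0.158, edgeR). At 4 weeks the +PBS libraries had 2.94, 17.99, 4.34 and 4.54 CPM, all above Intact. The log2 fold change of 2.58 ± 0.76 passed the thresholds (adjusted p = 0.00711, edgeR). Without replicate 2, the library that was also high for Fos, it was 1.66 and the call was lost (adjusted p = 0.0635, edgeR). The call was also lost without any 1 of the 4 Intact libraries, with log2 fold changes from 2.46 to 2.74.

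Egr1 encodes a zinc finger transcription factor induced by growth factors and by synaptic activity. Its Intact libraries had 14.4, 11.3, 16.9 and 19.1 CPM, and the sub-SCI libraries had 36.6, 47.4 and 52.0 CPM. The 2 sets did not overlap (log2 fold change 1.55 ± 0.32, adjusted p = 0.000272, edgeR). The +PBS values were 1.67, 1.495 and 1.65 at 1, 2 and 4 weeks. At 2 weeks the call was lost without either of the 2 +PBS libraries (adjusted p = 0.026 without replicate 1 and 0.014 without replicate 2, edgeR). Such a fit has 1 library in that group, which is assumed to vary like the other groups, so it says little about stability.

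Nr4a1, which encodes an orphan nuclear receptor induced in neurons and in myeloid cells, behaved otherwise. Intact had 9.66, 16.6, 17.9 and 18.6 CPM and sub-SCI had 22.3, 17.7 and 21.6 CPM, so the ranges overlapped (log2 fold change 0.39 ± 0.41, adjusted p = 0.424, edgeR). In +PBS-1w and +PBS-2w the log2 fold changes against Intact were 0.86 and 0.53 (adjusted p = 0.078 and 0.381, edgeR). In the +MSC groups they were 0.69, 1.07 and 0.85 at 1, 2 and 4 weeks, and none was a DEG. In +PBS-4w the libraries had 32.7, 75.7, 65.9 and 53.5 CPM. All 4 were above every Intact and sub-SCI library, and the log2 fold change against Intact was 1.86 ± 0.39 (adjusted p = 0.00041, edgeR). Against sub-SCI it was 1.47 ± 0.42, with an adjusted p of 0.0135 that missed the DEG threshold in edgeR, while DESeq2 on all libraries gave 1.44 and an adjusted p of 0.00274. Between +PBS and sub-SCI, 0 of the 6 members were DEGs in edgeR at 1, 2 and 4 weeks, beside 0.156%, 5.44% and 7.37% of all genes.

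Arc was the only called member that fell. Its product, a protein of dendrites and synapses, takes part in the removal of glutamate receptors from the synapse, and its transcript marks active excitatory neurons. The Intact libraries had 7.31, 9.21, 7.59 and 8.59 CPM, and the sub-SCI libraries had 1.98, 2.47 and 1.12 CPM. The highest sub-SCI library was thus far below the lowest Intact one (log2 fold change -2.14 ± 0.40, adjusted p = 8.31e-05, edgeR). The +PBS values were -1.97, -1.79 and -1.83 at 1, 2 and 4 weeks, all DEGs. The call at 2 weeks was lost without either +PBS library (adjusted p = 0.12 and 0.0115, edgeR), in fits that again had 1 library in that group and took the spread from the others, and without Intact replicate 2 (adjusted p = 0.0102, edgeR).

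Npas4 encodes a transcription factor that answers almost only to neuronal calcium entry. It was near the limit of detection, with 2 to 7 counts in the Intact libraries, 4, 3 and 0 in sub-SCI, and 0 to 23 over all 26. The filter kept it out of the edgeR test. DESeq2 on all libraries gave -1.59 ± 1.04 in sub-SCI against Intact (adjusted p = 0.195) and 1.29 ± 0.63 in +MSC against +PBS over the weeks (adjusted p = 0.114), and no comparison with an adjusted p made Npas4 a DEG there.

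Markers of cell types also differed between sub-SCI and Intact. The 16 neuronal markers summed to between 12810 and 15500 CPM in Intact and between 629 and 2866 CPM in sub-SCI, and 15 of the 16 were lower DEGs with a median log2 fold change of -2.97. The 12 markers of microglia and macrophages summed to 397 to 801 CPM in Intact and 6601 to 7604 CPM in sub-SCI, where 10 were higher DEGs. The 10 fibroblast markers summed to 274 to 1496 CPM and 8588 to 20620 CPM, and all 10 were higher DEGs. No marker of these 3 lists was at 0 in all libraries. Other lists shifted as well. The median sum of oligodendrocyte markers was 57500 CPM in Intact and 24730 CPM in sub-SCI. It rose from 35.2 to 221.8 CPM for neutrophils, 4.07 to 23.2 for lymphocytes and 294.5 to 413.8 for endothelial cells. The sums of astrocyte, Schwann cell, erythroid and skeletal muscle markers overlapped between these groups. For astrocytes the overlap was narrow, with 12400 to 14070 CPM in Intact (median 12580) and 6402 to 12480 CPM in sub-SCI (median 8265). In tissue RNA, fewer cells of a type and less RNA per cell cannot be told apart, and the part of cell composition in the values of the members was not tested.

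Other genes of the same families were mostly higher in injured cord too. Of the other AP-1 family genes, 6 of 9 were higher DEGs in sub-SCI against Intact and 0 lower, with a median log2 fold change of 2.12 beside -0.02 over all tested genes. Those with the smallest adjusted p were Atf3, a stress-induced factor, at 5.33 ± 0.40, Batf3 at 4.51 ± 0.35, Batf at 4.33 ± 0.37 and Jun, below the list's median, at 1.43 ± 0.21. Of the other EGR and NR4A genes, 3 of 6 were higher, namely Egr2 (2.47), Egr3 (1.55) and Nab2 (2.13), a corepressor of EGR proteins. Against Intact this count was 3, 2 and 5 of 6 in +PBS at 1, 2 and 4 weeks, and 2, 0 and 3 in +MSC. In +PBS-4w, Nr4a2 and Nr4a3 had log2 fold changes of 1.51 and 1.33 against Intact.

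Of 20 general rapid response genes, which include feedback phosphatases and RNA-destabilizing proteins, 17 were higher DEGs in sub-SCI, 13 in +PBS-1w, 10 in +PBS-2w and 19 in +PBS-4w, and 0 were lower in any of the 4. Socs3, which restrains cytokine signalling, had 3.95 ± 0.34 and Myc 2.46 ± 0.21 in sub-SCI. The median of the list was 1.74 in sub-SCI and 1.72 in +PBS-4w. Heat shock genes, a set linked to stress and handling of tissue, gave 2 higher and 2 lower DEGs of 7 in sub-SCI, with summed levels of 691 to 1075 CPM beside 699 to 776 CPM in Intact.

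Genes that act downstream of activity in neurons were divided. Of 17 neuronal activity effectors tested, 4 were higher and 5 lower DEGs in sub-SCI, with a median of 0.14. Nrn1, a growth-promoting surface protein of neurons, was lower at -3.01 ± 0.45, and Scg2, a secretory granule protein, at -2.08 ± 0.38, while Plk2, a kinase, was higher at 1.27 ± 0.17 and Baz1a, a chromatin remodelling subunit, at 1.85 ± 0.24. Of 15 upstream regulators, the calcium-dependent kinases Camk4 (-2.31), Camk2a (-2.66) and Camk2b (-2.86) were lower DEGs in sub-SCI and 0 were higher. The same 3 kinases were lower in +PBS-4w.

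**Figure D3:**
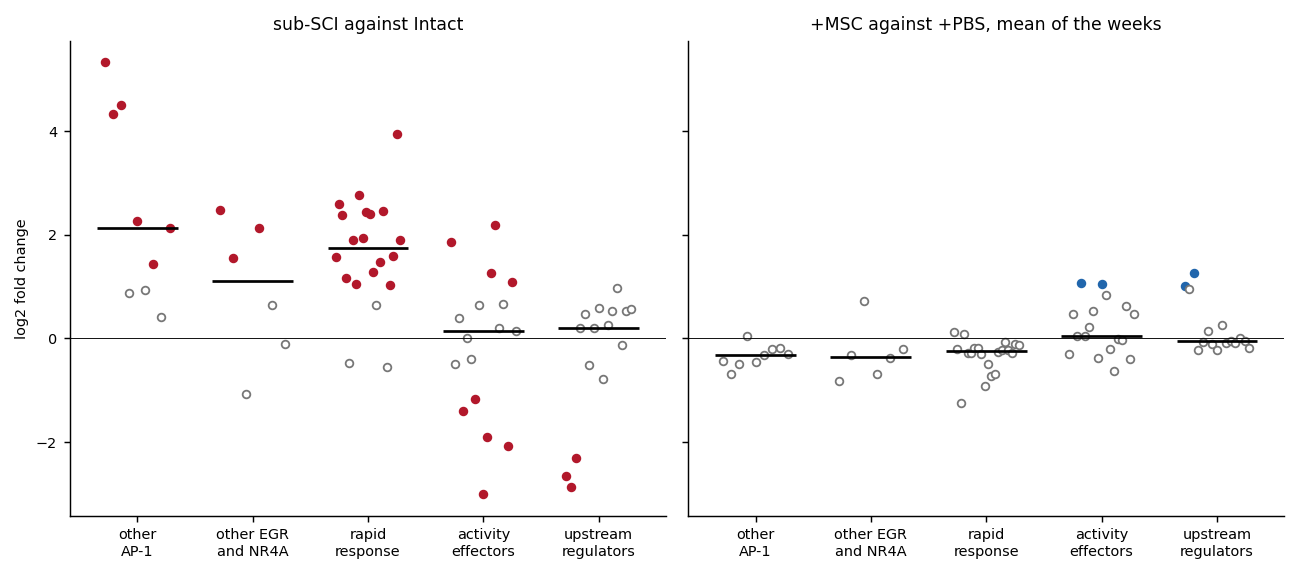
Log2 fold changes of each tested gene of 5 lists, in sub-SCI against Intact (left) and in +MSC against +PBS averaged over the weeks (right). Filled points are DEGs and lines are medians. In sub-SCI, the AP-1, EGR and NR4A and rapid response lists have medians of 2.12, 1.10 and 1.74, while effectors and upstream regulators spread to both sides.

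The second question was whether transplanted cords differed from vehicle cords. Of the 6 tested members, 0 were DEGs between +MSC and +PBS in edgeR at any week or in the mean of the 3 weeks. Few genes of any kind passed in edgeR. The shares were 0.0111%, 0% and 0.495% of all genes at 1, 2 and 4 weeks and 2.57% in the mean. At an unadjusted p under 0.05, edgeR found 1899 higher and 1320 lower genes at 1 week, 988 and 1231 at 2 weeks and 2020 and 2028 at 4 weeks, and Arc at 1 week and Junb and Nr4a1 at 4 weeks were among them. DESeq2 called 0 members as well, whether fitted to all libraries or to each week alone. The shares of all genes given here are those of edgeR, and the DESeq2 shares may differ. At the same thresholds, the paper's DESeq2 analysis reported more genes reversed by hUC-MSCs at each week than edgeR called here. The 0 members in DESeq2 can therefore not be read against the edgeR shares.

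Arc and Junb came nearest, in opposite directions. Arc had 2.38, 2.28 and 1.601 CPM in +PBS-1w and 6.25, 6.09 and 2.99 CPM in +MSC-1w. All 3 treated libraries were above all vehicle libraries, as for 15.3% of all tested genes. The log2 fold change was 1.29 ± 0.41 (95% interval 0.45 to 2.13, adjusted p = 0.126, edgeR). At 2 weeks the +PBS libraries had 1.73 and 3 CPM and the +MSC libraries 4.81, 3.45 and 3.49 CPM, again without overlap (0.73 ± 0.46, adjusted p = 0.52, edgeR).

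At 4 weeks the Arc ranges of 1.21 to 4.58 CPM in +PBS and 2.29 to 3.76 CPM in +MSC overlapped (0.38 ± 0.35, adjusted p = 0.548, edgeR). The mean of the weeks was 0.80 ± 0.23 with an adjusted p of 0.0186 in edgeR, which missed the DEG thresholds for adjusted p and for fold change. Leaving out 1 library at a time, it lay between 0.66 and 0.97. At 4 weeks the value depended on +PBS-4w replicate 1, the library at 4.58 CPM, without which it was 0.94 (adjusted p = 0.0385, edgeR), while without +PBS-4w replicate 3 it was 0.17, the lowest value with 1 library left out.

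Against Intact, Arc was not a DEG in +MSC-1w (-0.68 ± 0.37, adjusted p = 0.169, edgeR) or +MSC-2w (-1.06 ± 0.38, adjusted p = 0.0539, edgeR), and it was lower in +MSC-4w (-1.45 ± 0.35, adjusted p = 0.00347, edgeR). The 4-week call was lost without Intact replicate 2 (adjusted p = 0.0111) or +MSC-4w replicate 3 or 4 (0.0155 and 0.0133, edgeR). All +MSC libraries were nevertheless below all Intact libraries. The change of the +MSC effect on Arc from week 1 to week 4 was -0.91 ± 0.53 (adjusted p = 0.999, edgeR), so a difference between the weeks was not shown. The neuronal marker sum was 4911 to 9598 CPM in +MSC-1w and 1580 to 3587 CPM in +PBS-1w. In the mean of the weeks 7 of 16 neuronal markers were higher DEGs with a median of 1.02, and their part in the Arc values was not tested.

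Junb had 135.5, 107.2 and 86.6 CPM in +PBS-1w and 81.0, 79.4 and 78.9 CPM in +MSC-1w. The treated libraries were the lower ones without overlap, as for 11.6% of all genes (-0.46 ± 0.25, adjusted p = 0.347, edgeR). At 4 weeks the +PBS libraries had 90.2, 97.4, 177.4 and 118.6 CPM and the +MSC libraries 88.6, 64.2, 54.7 and 105.7 CPM, which overlapped (-0.63 ± 0.22, adjusted p = 0.0972, edgeR). The mean of the weeks was -0.50 ± 0.14 (95% interval -0.80 to -0.20, adjusted p = 0.0169, edgeR). It missed the DEG thresholds for adjusted p and for fold change.

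In all +MSC groups Junb remained a higher DEG against Intact, by 2.12, 1.86 and 2.096. Beside it, the microglia and macrophage marker sum was 3935 to 4115 CPM in +MSC-1w and 6585 to 8086 CPM in +PBS-1w, and in the mean of the weeks 1 of its 12 markers was a lower DEG with a list median of -0.31. The fibroblast markers had a median of -1.19, with 10 of 10 below 0 and 1 lower DEG. At 4 weeks the medians were -0.05 for microglia and macrophages and -1.07 for fibroblasts. The part of these cells in the Junb values was not tested.

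Nr4a1 differed most at 4 weeks. The +MSC-4w libraries had 22.8, 29.7, 26.5 and 33.8 CPM, against 32.7 to 75.7 CPM in +PBS-4w, so 1 library of each group overlapped (-1.01 ± 0.38, adjusted p = 0.117, edgeR). The 8 Schwann cell markers, which include Egr2 and Pmp22, summed to 2134 to 4256 CPM in +PBS-4w and 537 to 2517 CPM in +MSC-4w. They summed to 712 to 1218 CPM in sub-SCI and 329 to 1836 CPM in Intact, and none was at 0 in all libraries. In the other groups the markers summed to 695 to 4008 CPM (+PBS-1w), 1280 to 1696 (+PBS-2w), 1134 to 2424 (+MSC-1w) and 553 to 1792 (+MSC-2w). Their median log2 fold change was 0.02 in sub-SCI and 1.83 in +PBS-4w against Intact (2 and 3 higher DEGs), and -1.03 in +MSC-4w against +PBS-4w (0 DEGs in edgeR), and their part in the Nr4a1 values was not tested. At 2 weeks the +MSC libraries had 66.4, 14.5 and 17.8 CPM beside 21.7 and 23.8 CPM in +PBS, and the fold change of 0.54 turned to -0.49 without +MSC-2w replicate 1. The change of the +MSC effect from week 2 to week 4 was -1.55 ± 0.62, with an unadjusted p of 0.0212 and an adjusted p of 1 in edgeR, and it was -0.52 without +MSC-2w replicate 1. None of the tested genes passed in the 3 comparisons of weeks (0% of all genes), where edgeR had 208 higher and 272 lower genes at an unadjusted p under 0.05 between weeks 2 and 1, 335 and 367 between weeks 4 and 1, and 234 and 179 between weeks 4 and 2. DESeq2 on all libraries called 1, 1 and 0 genes.

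Fos, Egr1 and Fosb were not DEGs at any week. The mean of the weeks was 0.05 for Fos (95% interval -0.37 to 0.46) and -0.09 for Egr1 (-0.50 to 0.32). For Fosb the interval was wide, from -1.14 to 0.84, and the +MSC-4w libraries alone ran from 1.54 to 18.9 CPM. Against Intact, Fos and Egr1 were higher DEGs in all 3 +MSC groups, and with Junb made up 3 higher members of 6 at each week, where 7.87%, 5.6% and 7.25% of all genes were higher. Lower members numbered 0, 0 and 1 (Arc), beside 2.63%, 0.461% and 1.53% of all genes. The Egr1 call at 2 weeks was lost without +MSC-2w replicate 1 (1.17, adjusted p = 0.0162, edgeR). Fosb in +MSC-4w had a log2 fold change of 2.63 with an adjusted p of 0.0124 in edgeR, and became a DEG without +MSC-4w replicate 3 or 4 (adjusted p = 0.0062 and 0.00571, edgeR). Without +MSC-4w replicate 1, the library at 18.9 CPM, it was 1.69 (adjusted p = 0.0742, edgeR).

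Npas4 counts were 9, 5 and 5 in +MSC-1w and 3, 0 and 1 in +PBS-1w, and overlapped at 2 and 4 weeks. Of the related lists, 0 genes of the AP-1, EGR and NR4A and rapid response lists were DEGs between +MSC and +PBS in edgeR, with medians in the mean of the weeks of -0.32, -0.35 and -0.24 beside -0.02 over all genes. In that mean, log2 fold changes were below 0 for 8 of 9, 5 of 6 and 18 of 20 of these genes, and for 4 of 6 members. These genes were measured in the same libraries, so such counts do not hold independent values. The share of all genes below 0 is not given here. Camk4, a calcium-dependent kinase of neuronal nuclei, was higher in the mean of the weeks (1.26 ± 0.19, adjusted p = 0.000426, edgeR) and at 4 weeks (1.45 ± 0.28). Camk2a (1.01) was higher in the mean of the weeks, which made 2 of 15 upstream regulators, with a median of -0.05 and 9 of 15 below 0. Gpr3 (1.07) and Nrn1 (1.04) were higher, 2 of 17 effectors, with a median of 0.04. The neuronal markers had a median of 1.02 in the same comparison, and their part in these values was not tested. Camk4 had 1.45 ± 0.631 CPM (SD, n = 4) in +PBS-4w, 3.97 ± 0.933 in +MSC-4w and 7.68 ± 1.57 in Intact.

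Over all 7 members, Npas4 included, counts of genes without overlap between groups can be set beside the same share of all tested genes. Npas4 itself was not among the tested genes. Against Intact, 3 were wholly higher and 1 wholly lower in sub-SCI (32.9% and 34% of all genes), 3 and 2 in +PBS-1w (28.5% and 30.5%), 5 and 1 in +PBS-2w (31.1% and 31.3%) and 5 and 1 in +PBS-4w (22.4% and 21.3%). Fos, Junb and Egr1 were the 3 wholly higher members present in each of these groups. Fosb and Nr4a1 were the others in +PBS-2w and +PBS-4w. The lower members in +PBS-1w were Arc and Npas4. The raw counts of Npas4, 2 to 7 in Intact and 0 to 3 in +PBS-1w, overlapped. After scaling, its lowest Intact value was 0.0925 CPM and its highest +PBS-1w value 0.0892 CPM.

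In the +MSC groups the counts against Intact were 4 and 1 at 1 week (24.5% and 25.5%), 3 and 1 at 2 weeks (18.8% and 21.3%) and 4 and 1 at 4 weeks (18.3% and 20.4%), with Arc the lower member each time. Between +MSC and +PBS they were 2 higher, Arc and Npas4, and 1 lower, Junb, at 1 week (15.3% and 11.6%), 1 higher, Arc, and 1 lower, Fosb, at 2 weeks (18.6% and 18.4%), and 0 and 0 at 4 weeks (6.08% and 4.47%). Between +PBS and sub-SCI they were 0 and 0 at 1 week (10.4% and 13.4%), 3 and 1 at 2 weeks (26.9% and 26.5%) and 1 and 0 at 4 weeks (12.5% and 13.8%), the last being Nr4a1. The 3 higher members at 2 weeks were Fos, Fosb and the barely detected Npas4, and the lower one was Junb. Against Intact, the higher members in the +MSC groups were Fos, Junb and Egr1, joined by Nr4a1 at 1 and 4 weeks.

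The order of the group means differed between genes. For Fos, Junb and Egr1, Intact was last and did not overlap the group above it, while each of the other neighbours in the order overlapped. For Junb, sub-SCI and the 3 +PBS groups held the first 4 places and the +MSC groups the next 3. For Arc, Intact was first without overlap, the +MSC groups followed from 5.11 ± 1.84 CPM at 1 week to 2.99 ± 0.749 at 4 weeks, and sub-SCI was last at 1.85 ± 0.681. For Nr4a1 every neighbouring pair overlapped, from 57.0 ± 18.6 CPM in +PBS-4w down to 15.7 ± 4.09 in Intact.

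Whether the members varied together from library to library was examined after subtracting the group mean of log2 CPM, over the 15 pairs of the 6 tested genes. Of these, 13 correlations were positive. Fosb and Egr1 gave Pearson's r of 0.841 and Spearman's rho of 0.813 over 26 libraries (permutation p within groups of 2e-05 for both, adjusted 0.0003, two-sided). Without the 2 libraries farthest from the Fosb median, r was 0.774. Among the 17 libraries that were not replicate 1 and had a partner in their group, r was 0.722 with an adjusted permutation p of 0.155.

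The next highest were Fos with Egr1 (r = 0.597, rho = 0.46, permutation p = 0.0234, adjusted 0.117) and Egr1 with Nr4a1 (r = 0.576, rho = 0.596, permutation p = 0.0205, adjusted 0.117), and neither passed. Without the 2 libraries farthest from the median of the first gene of the pair, r was 0.408 and 0.595. Libraries extreme for the second gene stayed in. Without +MSC-2w replicate 1, r was 0.434 for Egr1 with Nr4a1, and without +PBS-4w replicate 2 it was 0.391 for Fos with Egr1. Arc gave values between -0.216 and 0.236 with the others, and these rested on +PBS-4w replicate 1. Without that library, r was 0.465 for Fos with Arc and 0.520 for Fosb with Arc. The points share the way the libraries were made.

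**Figure D4:**
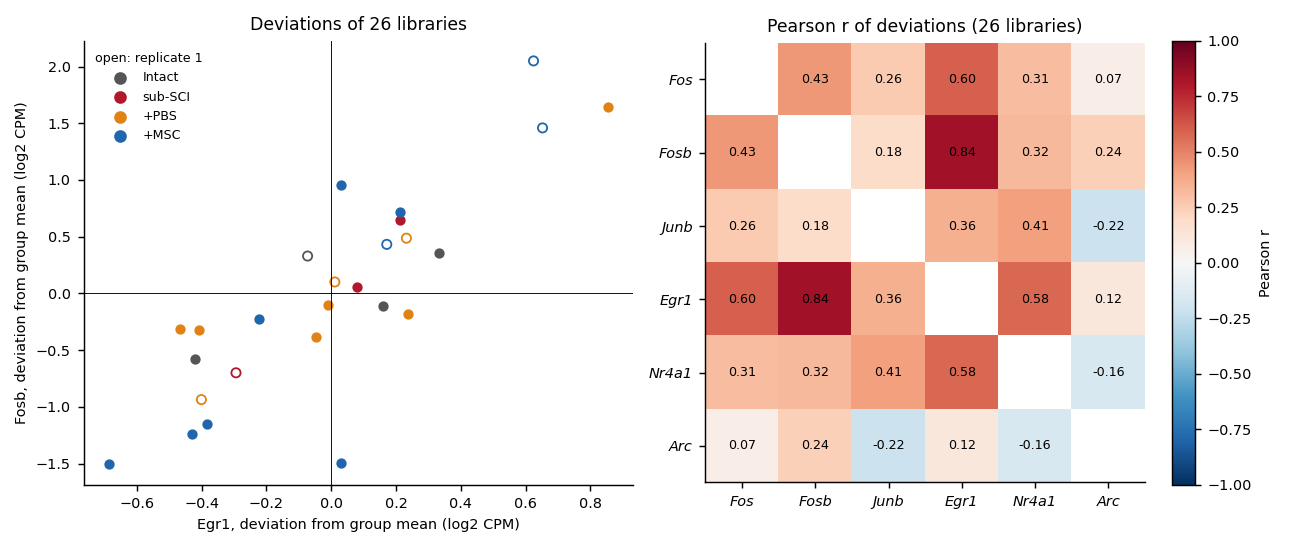
Left, deviation of Fosb from its group mean against that of Egr1, in log2 CPM, for 26 libraries coloured by treatment (open for replicate 1). Right, Pearson's r of such deviations for all pairs of the 6 genes; Fosb with Egr1, at 0.84, is the highest.

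Across all 26 libraries, group differences included, the tested genes most like each member by Pearson's r on log2 CPM were named as a description. Fos was most like Zfp36, an RNA-destabilizing protein (0.870), Egr1 (0.865) and Slc43a3 (0.860). Egr1 was most like Ccn1 (0.866), Fos (0.865) and Ier2 (0.849). Fosb was most like the phosphatase gene Dusp1 (0.771), Klf4 (0.733) and Ttc22 (0.731), and Nr4a1 was most like the kinase gene Sik1 (0.815), Klf4 (0.809) and Pmp22 (0.804).

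The other 2 had other neighbours. Junb was most like Lamp2, a lysosomal membrane protein (0.952), Cd1d1 (0.939) and Gpnmb, a glycoprotein of macrophages (0.937). Arc was most like Lrfn1, a synaptic adhesion protein (0.950), Frs3 (0.948) and Pcbd1 (0.928). Junb and Arc were related to each other by -0.79 on this scale, at rank 17495 of the tested genes for Junb.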

How the data were processed

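Libraries of poly(A) RNA were grouped by the sample labels, and replicate numbers were taken from the labels. The authors trimmed reads (Trim Galore 0.5.0), removed reads that mapped to the human genome and aligned what was left to Rnor6, the rat genome, with HISAT2 2.1.0. Proper pairs were kept with SAMtools 1.9 and counted per gene with featureCounts 1.6.4. The values the authors deposited are raw read counts for 32883 genes. The annotation release and the strand setting are not given in the sources used here, so genes that overlap others are uncertain, and the removal of human reads may also remove rat reads that match human sequence.

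Low counts were filtered by filterByExpr, which left 17990 genes. TMM factors scaled the libraries, and 1 model of the 8 groups was fitted without covariates (R 4.3.3, edgeR 4.0.16, glmQLFit and glmQLFTest). Adjusted p-values are Benjamini-Hochberg values over these genes. Levels are CPM on TMM-scaled library sizes; log2 CPM used a prior count of 2. Correlations used 100000 permutations within groups. Intervals of fold changes are 95% intervals from the model. Alternatives were DESeq2 1.42.0 on all libraries or on 2 groups, median-of-ratios size factors, no filter, the replicate number as a block, a term for replicate 1, the libraries other than replicate 1, and each library left out. The tests were tried on simulated counts. The members, lists and tests were chosen with earlier results of these data known. The members were tested in every comparison, except Npas4 in edgeR, and not every value is given. Up to 4 DEGs per related list are named by smallest adjusted p, with the 3 genes most like each member. Genes named for other reasons were chosen after their values were seen.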

Additional observations from a re-analysis of the deposited data

Results flagged for a closer look

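In 3 cases a value stood apart within a group of 4 libraries, by the gap to the nearest library over the range of the group. Fos was 70.53 CPM in +PBS-4w replicate 2, where the other libraries had 20.98 to 29.27 CPM. Fosb was 17.99 CPM in the same library, where the others had 2.944 to 4.542 CPM. Npas4 was 0.915 CPM in +MSC-4w replicate 1, which rests on 23 counts, where the others had 0.043 to 0.175 CPM. Of 21 sets of 4 values tested, each of 1 member in 1 group, 3 were marked. Chance marks about 1 in 20 of independent, normally distributed sets. These sets share libraries, and the Fos and Fosb marks fell in the same one, so the count cannot be weighed against chance. Egr1 was also highest in +PBS-4w replicate 2, at 81.74 CPM beside 34.04 to 43.76 CPM.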

How the results depend on the processing

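The number of members called as DEGs stayed within 1.5 times the reported number under every alternative and with each library left out, in all but the +PBS-2w against Intact and +PBS-4w against sub-SCI comparisons. For +PBS-2w against Intact it was 2 instead of 4 without replicate 1 libraries, and 2 to 4 with 1 library left out. For +PBS-4w against sub-SCI it was 1 instead of 0 under DESeq2 on all libraries, DESeq2 on the 2 groups and without replicate 1 libraries, and 0 to 1 with 1 library left out; the gene was Nr4a1. The number of correlated pairs was 0 instead of 1 without replicate 1 libraries, in a set of 17 libraries.

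The labels do not say that a replicate number marks a shared animal or batch, and not every same-numbered pair correlated above 0.1 in its deviations (range -0.0781 to 0.247), so the numbers were not treated as pairs. As a hint from the data that some may go together, 4 of 6, 6 of 8, 3 of 6, 5 of 6 and 3 of 8 libraries correlated best with their own number in +MSC-1w with +PBS-1w, +MSC-4w with +PBS-4w, and sub-SCI, +PBS-1w and +PBS-4w with Intact. With the replicate number as a block, the count of called members was again 4 in sub-SCI against Intact and 0 between +MSC and +PBS, and over all genes the mean of the weeks gave 416 higher and 227 lower DEGs, beside 290 and 172 without it. Under the block 3 fold changes turned, Fosb in +MSC-4w against +PBS-4w (-0.27) and in +MSC-2w against Intact (-0.32) and Fos between weeks 4 and 2 (-0.04). With a term for replicate 1 the same Fosb values were -0.24 and -0.11. The term itself gave 0.489% of all genes as DEGs and no member (largest for Fosb at 0.63).

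Without replicate 1 libraries, signs turned for Egr1 (-0.32) and Nr4a1 (-0.57) in +MSC-2w against +PBS-2w, Fosb in +MSC-4w against +PBS-4w (-1.14), Fos in the mean of the weeks (-0.20), Fosb (-0.97) and Nr4a1 (-0.12) in +MSC-2w against Intact, Egr1 in +PBS-1w (-0.15) and Arc in +PBS-4w (-0.27) against sub-SCI, Junb (-0.20), Egr1 (-0.22) and Nr4a1 (-0.35) in the +MSC effect between weeks 2 and 1, and Arc between weeks 4 and 2 (0.70). So did the correlations of Junb with Fosb (-0.33), Egr1 (-0.0404) and Nr4a1 (-0.0621). The correlation of Arc with Nr4a1 was 0.0597 without the 2 libraries farthest from the Arc median. None of these was past a threshold in the reported test, and the cause was not tested.

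With 1 library left out at a time, uncalled values that crossed 0 ranged as follows. In +MSC against +PBS they were Egr1 -0.33 to 0.036 and Nr4a1 -0.51 to 0.22 at 1 week, Fos -0.40 to 0.019, Egr1 -0.32 to 0.28 and Nr4a1 -0.49 to 0.89 at 2 weeks, Fos -0.32 to 0.42, Fosb -0.89 to 0.97 and Egr1 -0.48 to 0.14 at 4 weeks, and Fos -0.043 to 0.22, Fosb -0.55 to 0.16 and Egr1 -0.23 to 0.031 in the mean. In +MSC-2w against Intact Fosb was -1.08 to 0.55. Against sub-SCI they were Fos -0.026 to 0.13, Fosb -0.54 to 0.15, Junb -0.22 to 0.11, Egr1 -0.018 to 0.31 and Arc -0.086 to 0.43 in +PBS-1w, Egr1 -0.19 to 0.054 and Arc -0.10 to 0.65 in +PBS-2w, and Fos -0.18 to 0.53, Junb -0.14 to 0.21, Egr1 -0.28 to 0.23 and Arc -0.28 to 0.57 in +PBS-4w. In the +MSC effect they were Junb -0.17 to 0.24, Egr1 -0.19 to 0.41 and Nr4a1 -0.32 to 1.07 between weeks 2 and 1, Junb -0.35 to 0.078 and Egr1 -0.34 to 0.27 between weeks 4 and 1, and Fos -0.12 to 0.62, Junb -0.39 to 0.032, Egr1 -0.56 to 0.090 and Arc -0.80 to 0.22 between weeks 4 and 2. Fosb and Npas4 rest on few counts, as few as 9 and 0 in a library.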
